A study of Homo sapiens with 9 samples.

Results

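The caveolins and cavins are the coat proteins of caveolae, and the genes described here are CAV1, CAV2, CAVIN1, CAVIN2 and CAVIN3 with the 2 membrane-shaping genes EHD2 and PACSIN2. The members were chosen by name, with results of these data known, because CAV1 was among the largest falls shared by both FIBP siRNAs. They make up 7 of 60966 genes and 50 of 244443 transcripts in the deposited tables. The samples were H1299, an established line from a human non-small cell lung carcinoma, collected 48 h after siRNA transfection. There were 3 groups of 3 samples, transfected with a non-targeting siRNA (Scramble) or with either of 2 siRNAs against FIBP, the gene of a protein that binds acidic fibroblast growth factor (Si-FIBP#1 and Si-FIBP#2). All groups came from the same line, and by their labels the groups differed only in the siRNA. The labels name no culture or library batch. The series' design text calls the 3 samples of each group independent. The values are FPKM, fragments counted on a transcript and scaled to its length and to the depth of the sample, summed over the transcripts of each gene.

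Caveolae are small flask-shaped pits of the plasma membrane that take part in endocytosis, in buffering membrane tension and in organising signalling receptors. Caveolin proteins insert into the inner leaflet of the membrane, where CAV1 forms oligomers and CAV2 joins them. Cavins are cytosolic coat proteins that assemble on caveolin, with CAVIN1 required for caveolae and CAVIN2 and CAVIN3 joining its complexes. EHD2, an ATPase, sits at the neck of the pit, and PACSIN2, an F-BAR protein, bends the membrane there.

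Estimated depth was 20150000 to 24150000 fragments a sample, from the steps between low FPKM values. It was fitted together with a length offset of 260 to 300 bases. The fragment counts and limits below subtract this offset from transcript length, and they are approximate. FIBP itself was read first as a check of the labels. It stood at 88.38, 79.49 and 77.74 FPKM in Scramble, against 7.49, 7.77 and 4.30 FPKM for Si-FIBP#1 and 7.13, 5.92 and 8.21 FPKM for Si-FIBP#2. Both siRNA groups lay far below Scramble, with log2 differences of -3.50 ± 0.18 and -3.36 ± 0.18 (SE, adjusted p = 9.4e-07 and 1.4e-06). The cytoskeletal genes KRT8, KRT18 and VIM were expressed in all 9 samples, and each was lower in all 6 depleted samples than in any Scramble sample. EPCAM, NKX2-1, SFTPC and SFTPB, markers of lung epithelium, did not exceed 0.28 FPKM. Of 13 markers of endothelial, fibroblast, fat, muscle and blood cells, only COL1A1 and DCN passed 1 FPKM in any sample. The 13 together summed to 0.56 to 1.08 FPKM in Scramble and to 1.19 to 2.1 and 1.48 to 3.64 FPKM in the Si-FIBP#1 and Si-FIBP#2 groups, and their part in the results was not tested.

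CAV1 and CAV2 lie side by side on the plus strand of chromosome 7. In GENCODE 29 (GRCh38), matched by gene identifier, CAV2 (ENSG00000105971) spans chr7:116287380-116508541 and CAV1 (ENSG00000105974) spans chr7:116524785-116561184, so that 16243 bases separate them. The other members lie on 5 further chromosomes. CAVIN1 (ENSG00000177469) is at chr17:42402452-42423517 and CAVIN2 at chr2:191834302-191847255, both on the minus strand. CAVIN3 is at chr11:6318946-6320647 on the minus strand. EHD2 (ENSG00000024422) is at chr19:47713343-47743134 on the plus strand and PACSIN2 (ENSG00000100266) at chr22:42835412-43015145 on the minus strand.

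CAV1 is made in 2 forms that differ at the start of the protein, and the first coding bases show why transcripts are read separately below. ENST00000341049 begins upstream and codes for 178 residues, the form known as caveolin-1 alpha. ENST00000393467 begins at an internal site, and its coding sequence of 147 codons was identical to the last 147 of the longer form. Its start codon is codon 32 of the longer form, the start of caveolin-1 beta. The stretch below is from the GENCODE 29 transcript, 120 bases running from chr7:116525063 to chr7:116526614 on the plus strand across an intron, with both start codons in capitals.
CAV1 coding start: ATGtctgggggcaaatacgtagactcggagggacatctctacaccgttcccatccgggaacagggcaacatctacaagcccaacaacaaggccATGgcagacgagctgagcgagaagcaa

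Because CAV1 and CAV2 were lower together, their promoter windows were compared for short motifs. RefSeq windows (GRCh38.p14) of 300 bases were matched for 5 of the 7 members, 13 windows in all. CAVIN1 and CAVIN3 had no matched window and were not searched. The GC box GGGCGG, searched on both strands, occurred 3 times in each of 2 overlapping windows of the upstream CAV1 start, 2 times in the window of the internal CAV1 start, and 6 and 4 times in the 2 CAV2 windows. It also occurred once in the EHD2 window and 2 times in 1 of 6 PACSIN2 windows, and not in the CAVIN2 window, so it was not limited to the caveolins. It is also found in 45% of all 35116 RefSeq promoter windows. No window of the 5 members held the STAT-type motif TTCNNNGAA, which 7.66% of all windows hold, or TATAAA, which 11.5% hold. The CAV1 and CAV2 windows were 61.7% to 82.7% G and C. The EHD2 window was 71%, the PACSIN2 windows were 47% to 68.7% and the CAVIN2 window was 49.3%. The G and C content of all RefSeq windows was not computed. The stretches below hold a GC box in capitals, shown on the plus strand, where CCGCCC is the same box on the minus strand. A match is a description of the letters only.
CAV1 upstream start, chr7:116524905-116524934: caaacctttggcGGGCGGccaggaggctcc
CAV1 upstream start, chr7:116524933-116524962: ccctcccagccaCCGCCCccctccagcgcc
CAV1 internal start, chr7:116526255-116526284: acccctggcggcGGGCGGgggaggcaggcg
CAV2, chr7:116499677-116499706: cgaggcgaggggGGGCGGggccgggcgcta

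In Scramble cells, CAV1 had the highest level of the members. Its mean of 137 ± 3.47 FPKM (SD, n = 3) placed it at rank 723 of the 14985 genes tested, within the top 4.82%. CAVIN1 followed at 101 ± 1.81 FPKM (top 6.79%) and CAV2 at 49.3 ± 1.44 FPKM (top 14.5%). PACSIN2 and EHD2 stood lower, within the top 30% and 38%. The samples of each of these 5 genes did not overlap with those of its neighbour in this order. CAVIN2 and CAVIN3 were at or near 0, so 5 of the 7 members passed the filter of 1 FPKM in at least 3 samples. The cavin family of these cells was therefore read almost wholly as CAVIN1.

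CAV1 was lower with both siRNAs. In bulk RNA, fewer cells that carry a transcript and less of it per cell cannot be told apart. It measured 138.18, 139.71 and 133.08 FPKM in Scramble. With Si-FIBP#1 it measured 46.85, 40.04 and 39.40 FPKM, and with Si-FIBP#2 it measured 35.37, 24.95 and 29.41 FPKM. All 6 depleted samples lay below all Scramble samples, and all Si-FIBP#2 samples lay below all Si-FIBP#1 samples. The means of 42.1 ± 4.13 and 29.9 ± 5.23 FPKM were 30.7% and 21.8% of Scramble. On the log2(FPKM + 1) scale used for every difference, CAV1 was lower by -1.68 (95% interval -1.94 to -1.43) and -2.17 (95% interval -2.42 to -1.92). These values chose the gene, so they are given as a description with no test. The intervals do not allow for that choice. By the mean of both differences CAV1 ranked 9 of 14985 among all falls, and 8 of the 230 genes called lower with both siRNAs. Estimated fragments behind CAV1 ranged from 1010 to 6230 a sample.

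CAV2, the partner of CAV1 in the caveolin oligomer, was also lower in every depleted sample but by less. It measured 47.68, 50.49 and 49.64 FPKM in the Scramble samples, against 29.11, 25.96 and 28.82 FPKM for Si-FIBP#1 and 28.11, 24.70 and 29.61 FPKM for Si-FIBP#2. The siRNA groups overlapped each other and neither overlapped Scramble. The means were 56.8% and 55.8% of Scramble, with log2 differences of -0.80 (95% interval -0.97 to -0.63) and -0.82 (95% interval -0.99 to -0.65).

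CAVIN1, a cytosolic coat protein, did not share the lower level of the caveolins. It measured 99.70, 102.97 and 99.97 FPKM in the Scramble samples, against 109.73, 106.79 and 106.80 FPKM for Si-FIBP#1 and 105.50, 100.01 and 106.23 FPKM for Si-FIBP#2. The Si-FIBP#1 samples lay above Scramble by a few percent, and the Si-FIBP#2 samples overlapped it. The log2 differences were 0.09 and 0.04 (SE 0.043 each), and they became -0.01 and -0.11 when samples were scaled by their median ratio. That scaling moved the all-gene median from 0.07 to -0.02 for Si-FIBP#1 and from 0.11 to -0.02 for Si-FIBP#2. No direction is therefore given for CAVIN1.

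CAVIN2 was listed at 0.03 FPKM in Scramble replicate 1 and in Si-FIBP#1 replicate 1 and at 0 in the other 7 samples. CAVIN3 was listed at 0.06 FPKM in Scramble replicate 2 and at 0 in the other 8. By the estimated depth these values correspond to about 2 and 1 fragments. A count of 0 allows a level of up to 0.0537 FPKM for CAVIN2 and 0.199 FPKM for CAVIN3 at most, taking 3 fragments as the limit, which covers counting error only. No comparison between groups was made for either gene, and a difference within these limits was not detectable at this depth.

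The accessory genes at the neck of the pit differed little from Scramble. EHD2 measured 17.55, 15.21 and 15.23 FPKM in the Scramble samples, against 18.08, 16.54 and 14.91 FPKM for Si-FIBP#1 and 18.29, 15.48 and 17.57 FPKM for Si-FIBP#2, and the 3 groups overlapped. Its log2 differences of 0.04 and 0.09 (SE 0.094 each) were within the spread between samples, and both became -0.05 under median ratio scaling. PACSIN2 measured 21.28, 20.90 and 23.18 FPKM in the Scramble samples, against 18.00, 18.31 and 18.22 FPKM for Si-FIBP#1 and 19.09, 20.49 and 19.34 FPKM for Si-FIBP#2. All 6 depleted samples lay below all Scramble samples, by a small margin. Its log2 differences were -0.25 (95% interval -0.38 to -0.11) and -0.14 (95% interval -0.28 to -0.01), and both stayed below 0 under median ratio scaling, at -0.35 and -0.29. Separation of all 6 depleted samples from Scramble was not limited to the members. Among the tested genes of the lists described below, EHD4, TES, MET, AP2M1, EPS15 and STOML2 also lay under all Scramble samples in all 6. EGFR, ABL1, PRKCA and FLNA did so as well. EHD1, EHD3, CLTA, CLTC, AP2A1, SYNJ1, STOML1 and ERLIN2 lay above all Scramble samples in all 6. How many of all genes separate in this way was not counted, so nothing is read from such separation.

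**Figure D1:**
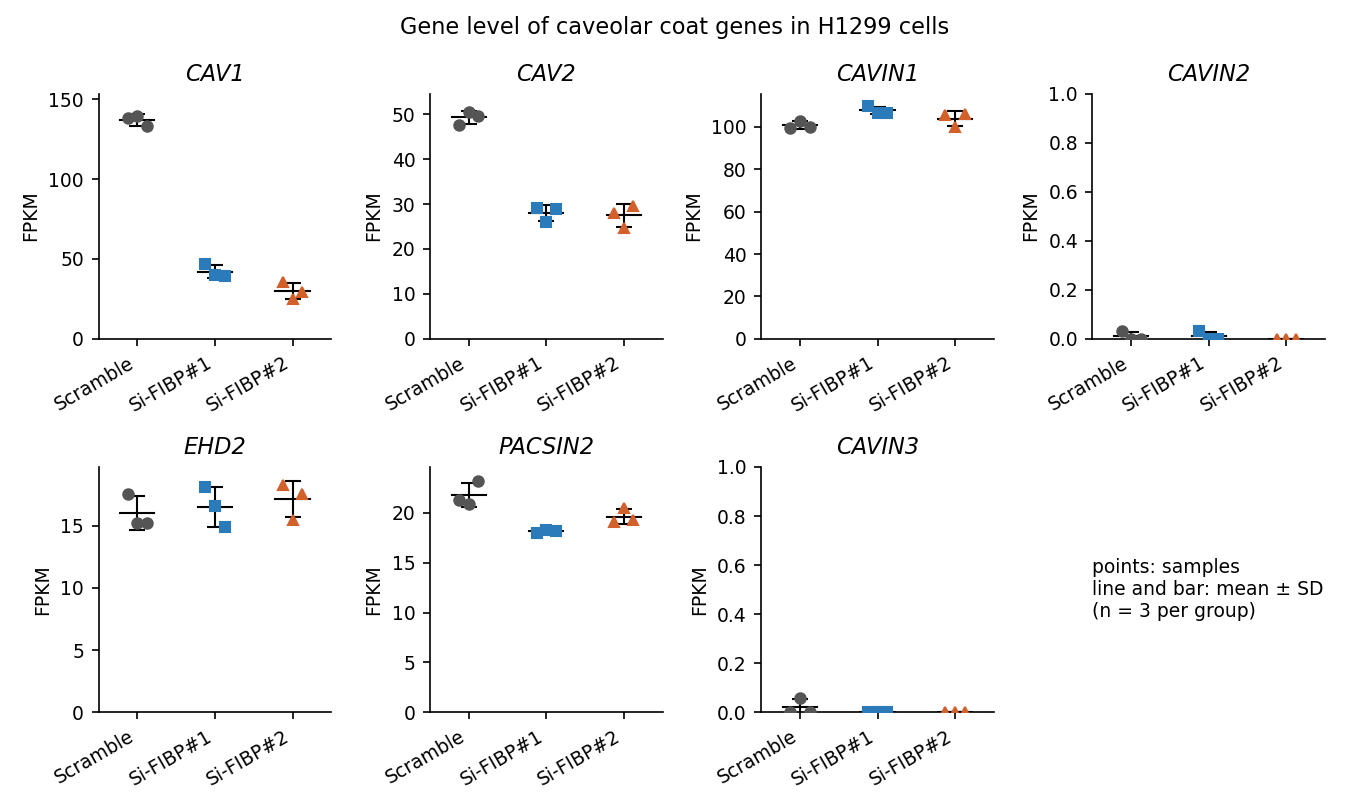
FPKM of the 7 members by group, one panel a gene, with a point for each sample and the mean ± SD of 3 samples. CAV1 and CAV2 are lower in all 6 depleted samples, CAVIN1 and EHD2 stay near Scramble, PACSIN2 is slightly lower, and CAVIN2 and CAVIN3 lie at or near 0.

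A gene was called when its false discovery rate (FDR) was below 0.05 and its difference exceeded 2-fold, the thresholds of the study. By this rule CAV1 was the only member past both thresholds, lower with each siRNA, which follows from its choice on these contrasts and is no test of it. Of all genes tested, 5.66% were called in the Si-FIBP#1 comparison (3.11% lower and 2.55% higher). In the Si-FIBP#2 comparison 5.05% were called (2.13% lower and 2.92% higher). With the FDR alone, 3 members passed in the first comparison and 2 in the second, where 47.7% and 48.8% of all genes did. Under median ratio scaling the genes called went from 382 higher and 466 lower to 296 and 564 for Si-FIBP#1, and from 438 and 319 to 291 and 481 for Si-FIBP#2. Since the members were chosen from these contrasts, nothing is read from the shares.

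The comparison of the 2 siRNAs with each other did not enter the choice of members, and it was tested. CAV1 was lower with Si-FIBP#2 than with Si-FIBP#1 by -0.49 on the log2 scale (95% interval -0.74 to -0.24, adjusted p = 0.0186), which is 0.713 times the level. This difference passed the FDR but was under 2-fold, so no member was called by both criteria, where 0.561% of all genes were and 15.4% passed the FDR alone. The 40 higher and 44 lower calls behind the first share became 105 and 67 with a pseudocount of 0.1, 64 and 42 when each sample was scaled to the same FPKM total, and 75 and 57 once Si-FIBP#2 replicate 2 was left out. In 17 alternatives the CAV1 difference ranged from -0.61 to -0.37 and its adjusted p from 0.0074 to 0.0685. It lost the FDR threshold without Si-FIBP#1 replicate 1 (-0.41, adjusted p = 0.0685), without Si-FIBP#2 replicate 3 (-0.48, adjusted p = 0.0592), with no filter on low values (adjusted p = 0.0601) and with only the 2 groups in the fit (adjusted p = 0.0501).

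The other members did not pass the test between the siRNAs. For CAV2 the difference was -0.03 (95% interval -0.20 to 0.14, adjusted p = 0.856). CAVIN1 differed by -0.05 (95% interval -0.15 to 0.04), EHD2 by 0.05 (95% interval -0.16 to 0.26) and PACSIN2 by 0.11 (95% interval -0.03 to 0.24). FIBP itself differed by 0.13 (95% interval -0.28 to 0.54, adjusted p = 0.686). The intervals leave room for differences of up to the bounds given.

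**Figure D2:**
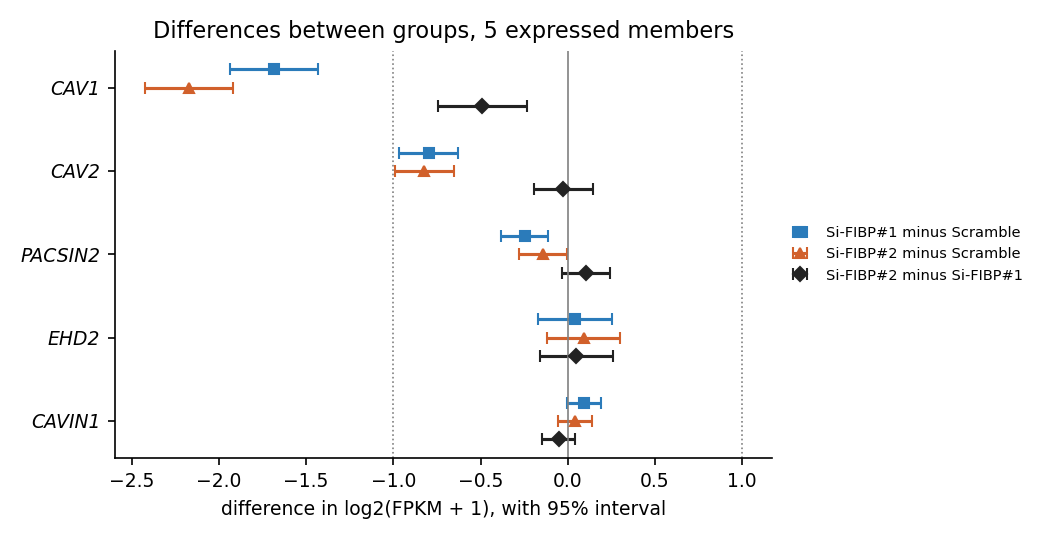
Differences in log2(FPKM + 1) between groups for the 5 members that passed the filter, with 95% intervals from the fit across all genes; dotted lines mark a 2-fold difference. Only CAV1 lies past 2-fold against Scramble, and it is the only member whose interval between the siRNAs leaves out 0. The CAV1 intervals against Scramble do not allow for its choice on these values.

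The relation between the members is given as a description. Ratios and shares that hold CAV1 are built on the values that chose it, so their distance from Scramble follows from that choice and nothing is read from it. The ratio of CAV1 to CAV2 was 2.90, 2.77 and 2.68 in Scramble. It was 1.61, 1.54 and 1.37 in the Si-FIBP#1 samples and 1.26, 1.01 and 0.993 in the Si-FIBP#2 samples. CAV1 lay well above CAV2 in Scramble and at about its level in the Si-FIBP#2 samples. The ratio of CAV1 to CAVIN1 went from a mean of 1.36 ± 0.0274 in Scramble to 0.390 ± 0.0319 and 0.287 ± 0.0438. The ratio of CAV2 to CAVIN1 went from 0.488 ± 0.00931 to 0.259 ± 0.0143 and 0.264 ± 0.0160. Ratios within a sample do not depend on the scaling of that sample.

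The 7 members summed to 325 ± 4.15 FPKM in Scramble, against 212 ± 8.03 FPKM for Si-FIBP#1 and 198 ± 11.0 FPKM for Si-FIBP#2. CAV1 and CAV2 made up 57.3% of that sum in Scramble but 32.9% and 28.9% in the 2 depleted groups, in the same order, again as a description of the values that chose CAV1. Between the 2 siRNAs, 8 ratios and shares were compared by an exact two-sided permutation test of 3 against 3 samples, which cannot go below p = 0.1. The ratios of CAV1 to CAV2 and of CAV1 to CAVIN1 and the caveolin share reached this smallest exact p of 0.1 (0.16 after Benjamini-Hochberg adjustment over the 8). The ratio of CAV2 to CAVIN1 had an exact permutation p of 0.6.

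**Figure D3:**
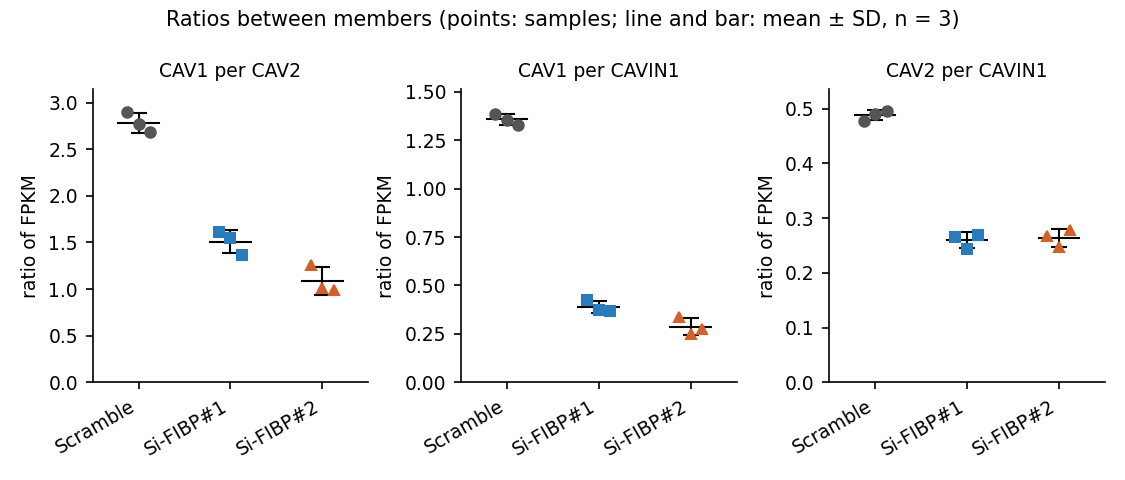
Ratios of FPKM between members in each sample, with the mean ± SD of 3 samples a group. The ratio of CAV1 to CAV2 steps down from Scramble (2.78) to Si-FIBP#1 (1.51) and Si-FIBP#2 (1.09), while the ratio of CAV2 to CAVIN1 is near 0.26 with both siRNAs.

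Of the 50 transcripts of the members, 15 reached 1 FPKM in at least 3 samples. CAV1 had 5 of these 15, CAV2 had 4, and CAVIN1, EHD2 and PACSIN2 had 2 each. The deposited lengths of some main transcripts differ from GENCODE 29, for example 2456 against 2704 bases for ENST00000341049 and 2953 against 3301 for ENST00000222693, while most others are the same. The reason was not tested. How fragments shared by transcripts of a gene were divided was the work of the quantification, and transcript values are less certain than gene sums.

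Both start sites of CAV1 were lower. ENST00000341049, the alpha form, measured 86.24, 88.78 and 86.68 FPKM in the Scramble samples, against 26.59, 23.31 and 24.13 FPKM for Si-FIBP#1 and 18.07, 13.03 and 16.66 FPKM for Si-FIBP#2. ENST00000393467, a beta form, measured 32.27, 28.43 and 28.11 FPKM in the Scramble samples, against 11.18, 9.11 and 9.94 FPKM for Si-FIBP#1 and 9.71, 6.20 and 7.64 FPKM for Si-FIBP#2. In each transcript the depleted samples lay below all Scramble samples. The log2 differences from Scramble were -1.78 and -2.39 for the alpha form (SE 0.109 each) and -1.47 and -1.81 for the beta form (SE 0.145 each).

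The other 3 CAV1 transcripts that passed the filter had lower means with both siRNAs. ENST00000451122, annotated for nonsense-mediated decay, measured 5.65, 5.74 and 4.75 FPKM in the Scramble samples, against 2.57, 1.95 and 1.80 FPKM for Si-FIBP#1 and 1.06, 1.22 and 1.74 FPKM for Si-FIBP#2. ENST00000489856, which retains an intron, varied from 4.26 to 12.12 FPKM in Scramble and lay at 2.37 to 4.06 FPKM in the depleted samples. ENST00000393468, a second beta transcript, varied from 1.42 to 7.57 FPKM in Scramble and from 0.52 to 1.59 FPKM in the depleted samples, with 5 of 6 below all Scramble samples. These last 2 transcripts had a spread in Scramble too wide for more than a description.

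Transcripts with the internal start made up 29.6%, 24.5% and 22.2% of CAV1 FPKM in Scramble. They made up 28.3%, 26.8% and 27.6% in the Si-FIBP#1 samples and 36.3%, 31.2% and 29.4% in the Si-FIBP#2 samples. The Si-FIBP#1 samples lay within the range of Scramble, and 2 of the 3 Si-FIBP#2 samples lay above it. All Si-FIBP#2 shares were above all Si-FIBP#1 shares, with an exact permutation p of 0.1, the smallest possible. ENST00000341049 made up 63.7 ± 1.37% of CAV1 FPKM in Scramble, against 58.7 ± 2.29% and 53.3 ± 2.94% for the 2 siRNAs. All 6 depleted samples lay below Scramble in this share, and its exact permutation p between the siRNAs was 0.1. The same test gave 0.5 for the retained-intron share of CAV1 and 0.2 for the ENST00000222693 share of CAV2. Between the siRNAs, ENST00000341049 was lower with Si-FIBP#2 by -0.61 (95% interval -0.86 to -0.36, adjusted p = 0.0275). It was under 2-fold, and no transcript of the members was called by both criteria, where 0.468% of 47662 transcripts tested were and 2.46% passed the FDR alone. For ENST00000393467 the difference was -0.34 (95% interval -0.67 to -0.01, adjusted p = 0.284). ENST00000341049 lost the FDR threshold in 7 of 13 alternatives, all of them fits that left out 1 sample, with adjusted p from 0.0106 to 0.0991 over the 13.

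**Figure D4:**
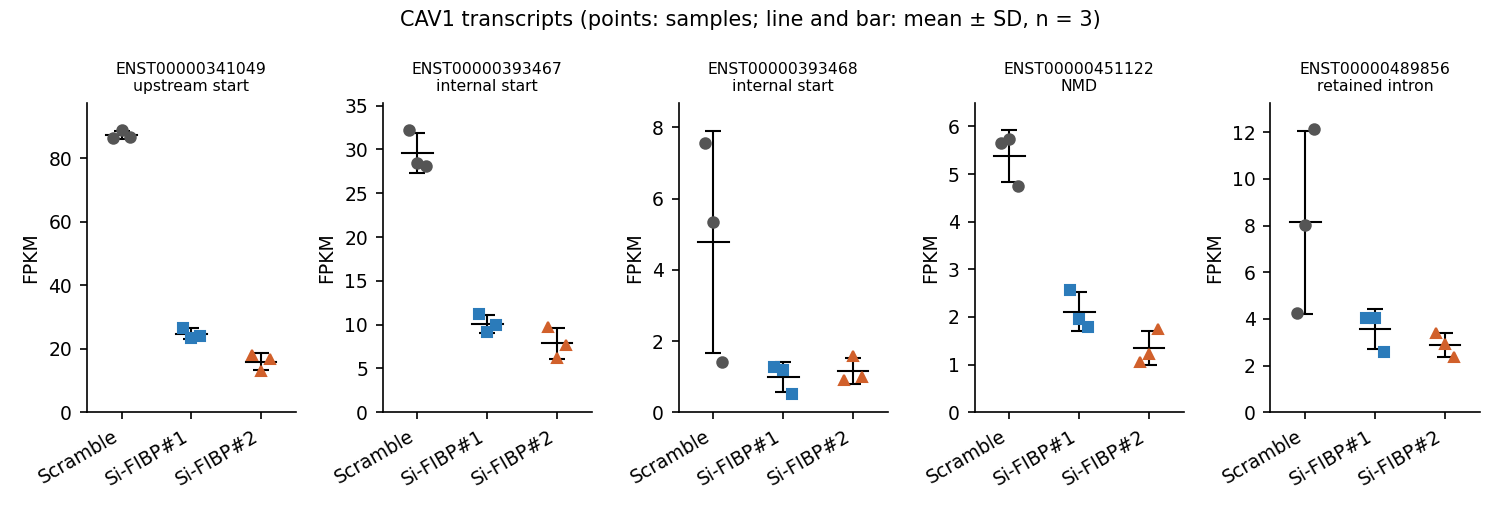
FPKM of the 5 CAV1 transcripts that reached 1 FPKM in at least 3 samples, one panel a transcript, with a point for each sample and the mean ± SD of 3 samples. The upstream-start transcript goes from 86.2 to 88.8 FPKM in Scramble to 13.03 to 26.59 FPKM in the depleted samples, and the main internal-start transcript from 28.11 to 32.27 to 6.20 to 11.18 FPKM.

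CAV2 was carried mainly by ENST00000222693, which made up 74.6 ± 2.50% of its FPKM in Scramble. It measured 35.31, 36.60 and 38.41 FPKM in the Scramble samples, against 22.69, 21.88 and 22.75 FPKM for Si-FIBP#1 and 22.06, 17.37 and 20.08 FPKM for Si-FIBP#2. The log2 differences were -0.69 and -0.86 (SE 0.0866 each). Its smaller transcripts ENST00000393480 and ENST00000495841 were below all Scramble samples in all 6 depleted samples, and ENST00000343213 was so in 5 of 6. Of the 15 CAV2 transcripts, 9 were listed at 0 in all samples, and these 9 begin in the far upstream part of the gene, between bases 116287380 and 116289913. The 4 that passed the filter begin between bases 116499390 and 116500044.

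CAVIN1 rested on ENST00000357037, at 95.8 ± 1.47 FPKM in Scramble, against 102 ± 1.54 FPKM for Si-FIBP#1 and 99.4 ± 3.34 FPKM for Si-FIBP#2. A transcript assembled by the authors added about 5 FPKM. EHD2 rested on ENST00000263277, at 13.8, 13.5 and 14.4 FPKM in the 3 groups. PACSIN2 rested on ENST00000263246, at 18.8 ± 0.956, 14.9 ± 0.589 and 16.9 ± 1.33 FPKM. Its log2 differences were -0.31 and -0.15, and 5 of 6 depleted samples lay below all Scramble samples.

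Genes with a pattern most like CAV1 were sought over the 9 samples, as the root mean square difference of log2(FPKM + 1) less the Scramble mean, among 10013 genes with a mean of at least 5 FPKM. The nearest was ID1, an inhibitor of basic helix-loop-helix factors, with a difference of 0.179. ID1 measured 289.92, 271.67 and 241.41 FPKM in the Scramble samples, against 123.60, 78.26 and 87.66 FPKM for Si-FIBP#1 and 67.94, 58.02 and 56.58 FPKM for Si-FIBP#2. FAM83D, a spindle protein, followed at 0.19, UHRF1, which maintains DNA methylation, at 0.23, CCN2, a matricellular protein, at 0.24 and KIF20A, a mitotic kinesin, at 0.319. CCN2 had, like CAV1, a lower level with Si-FIBP#2 (9.47 ± 1.65 FPKM) than with Si-FIBP#1 (16.2 ± 0.396 FPKM), against 46.6 ± 2.85 FPKM in Scramble. UHRF1 had about the same level with both (17.3 ± 0.757 and 18.0 ± 2.85 FPKM). The samples are shared by all these genes and likeness was the basis of the choice, so no test is given.

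Of 58 genes in 5 lists of other family members, related routes of uptake, caveolin-linked signalling and neighbours on chromosome 7, 48 passed the filter. With Si-FIBP#1, 1 (ROR1, with no test for the reason given below) was past both criteria on the higher side and 2 were lower, where 2.55% of all genes rose and 3.11% fell. With Si-FIBP#2, none rose and 1 fell, where 2.92% rose and 2.13% fell. With the FDR alone, 12 rose, 12 fell and 24 did not pass with Si-FIBP#1. For Si-FIBP#2, 9 rose, 9 fell and 30 did not pass. These stand beside 47.7% and 48.8% of all genes passing. Of all 14985 genes, 4170 rose and 2976 fell with Si-FIBP#1, and 4653 rose and 2656 fell with Si-FIBP#2. Between the 2 siRNAs none was called by both criteria, and 6 were higher and 6 lower with Si-FIBP#2 by the FDR alone, where 15.4% of all genes passed. ROR1 is among the 12 that rose with Si-FIBP#1 by the FDR alone and among the 6 lower between the siRNAs. It is counted with no test, since it passed the filter only through the group where it was high.

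Among the other caveolin, cavin, EHD and PACSIN genes, 4 of 7 passed the filter, and CAV3, CAVIN4 and PACSIN1 did not exceed 0.26 FPKM. None was called by both criteria. EHD4, a relative of EHD2, stood at 14.9 ± 1.09 FPKM in Scramble and at 9.06 ± 0.0625 and 9.24 ± 0.222 FPKM after depletion (log2 -0.66 and -0.64, adjusted p = 5.7e-05 and 7.6e-05). EHD1, an ATPase of endosomal recycling, went the other way, from 26.8 ± 0.931 FPKM to 35.8 ± 1.77 and 42.5 ± 1.16 FPKM (log2 0.40 and 0.64, adjusted p = 3.5e-04 and 2.0e-05). EHD3 and PACSIN3 were outside the rule for named genes. EHD3 went from 2.84 ± 0.171 FPKM to 4.87 ± 0.0872 and 3.66 ± 0.558 FPKM (log2 0.61 and 0.27, adjusted p = 9.8e-04 and 0.0510). PACSIN3 had log2 differences of -0.20 and -0.09 (adjusted p = 0.0554 and 0.354). With the FDR alone, 2 rose and 1 fell with Si-FIBP#1, and 1 rose and 1 fell with Si-FIBP#2. Of all 14985 genes, 4170 rose and 2976 fell with Si-FIBP#1, and 4653 rose and 2656 fell with Si-FIBP#2. The median log2 differences of the 4 genes were 0.10 and 0.09, beside 0.07 and 0.11 over all genes.

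The clathrin-coated pit list, a separate route of endocytosis, had 21 of 22 genes tested. EPS15, an adaptor of the pit, was the only gene called, and it fell with Si-FIBP#1. It measured 14.07, 15.59 and 13.82 FPKM in the Scramble samples, against 6.35, 5.32 and 5.41 FPKM for Si-FIBP#1 and 8.13, 5.19 and 8.10 FPKM for Si-FIBP#2. The log2 differences were -1.21 (adjusted p = 1.3e-04) and -0.95 (adjusted p = 5.7e-04), the second just under 2-fold. The second exceeded 2-fold without Si-FIBP#2 replicate 1 or 3 (-1.04 each), under median ratio scaling (-1.09) and at a pseudocount of 0.1 (-1.04). The difference between the siRNAs did not pass (0.26, adjusted p = 0.266), but passed without Si-FIBP#2 replicate 2 (0.45, adjusted p = 0.0121). The median of the list was 0.06 with each siRNA. With the FDR alone, 5 rose and 2 fell with Si-FIBP#1, and 6 rose and 4 fell with Si-FIBP#2. Over all 14985 genes, 4170 rose and 2976 fell with Si-FIBP#1, and 4653 rose and 2656 fell with Si-FIBP#2.

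Flotillins and stomatins scaffold other membrane microdomains. Of 7 genes tested of 8, none was called. STOML1 went from 5.70 ± 1.23 FPKM to 10.2 ± 1.25 and 10.5 ± 0.975 FPKM (log2 0.75 and 0.80, adjusted p = 0.0015 and 0.0010). ERLIN2, an endoplasmic reticulum protein, went from 11.9 ± 1.08 FPKM to 19.0 ± 0.888 and 17.0 ± 2.84 FPKM (log2 0.63 and 0.47, adjusted p = 0.0012 and 0.0060). The medians of the list were 0.00 and 0.11. With the FDR alone, 3 rose and 2 fell with Si-FIBP#1, and 2 rose and 1 fell with Si-FIBP#2. Beside these, 4170 of all 14985 genes rose and 2976 fell with Si-FIBP#1, and 4653 rose and 2656 fell with Si-FIBP#2.

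The list of caveolin-linked receptors and kinases had 12 of 13 genes tested, and it also held FLNA, which is neither. FLNA, the actin crosslinker filamin A that ties caveolae to stress fibres, fell with both siRNAs. It was the only gene of all the lists called with Si-FIBP#2. It measured 306.23, 294.77 and 290.38 FPKM in the Scramble samples, against 126.72, 108.37 and 99.93 FPKM for Si-FIBP#1 and 131.13, 72.23 and 110.17 FPKM for Si-FIBP#2. The log2 differences were -1.41 (adjusted p = 1.9e-04) and -1.54 (adjusted p = 1.1e-04), and all 6 depleted samples were below all Scramble samples. ROR1, a receptor kinase that binds caveolin and CAVIN1, was past both thresholds with Si-FIBP#1. It passed the filter only through the Si-FIBP#1 samples, so it had to be higher there, and its differences are given with no test. It measured 0.64, 0.57 and 0.87 FPKM in the Scramble samples, against 2.57, 2.29 and 2.63 FPKM for Si-FIBP#1 and 0.80, 0.95 and 0.93 FPKM for Si-FIBP#2. The log2 differences from Scramble were 1.05 and 0.16, and the 2 siRNAs differed by -0.88. These depend on the pseudocount of 1, since with 0.1 they were 1.73, 0.34 and -1.39, and the Si-FIBP#1 mean was 360% of the Scramble mean in FPKM. The first came just under 2-fold without Scramble replicate 2 (0.996) and under median ratio scaling (0.998). The medians of the list were -0.14 and -0.02. With the FDR alone, 2 rose and 5 fell with Si-FIBP#1, and none rose and 2 fell with Si-FIBP#2. ROR1 is among the 2 that rose and is counted with no test. Beside these, 4170 of all 14985 genes rose and 2976 fell with Si-FIBP#1, and 4653 rose and 2656 fell with Si-FIBP#2.

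The genes around CAV1 and CAV2 on chromosome 7 were read to see whether the lower level extended along the region. Of 8 neighbours, 4 passed the filter and none was called. TES, a focal adhesion protein upstream of CAV2, went from 21.6 ± 0.757 FPKM to 16.9 ± 1.07 and 18.2 ± 1.30 FPKM (log2 -0.34 and -0.24, adjusted p = 0.0039 and 0.0191). The second lost the FDR threshold without Scramble replicate 1 or 2 or Si-FIBP#2 replicate 1 or 3, with adjusted p up to 0.0658. MET, the hepatocyte growth factor receptor downstream of CAV1, went from 20.3 ± 0.331 FPKM to 15.4 ± 1.19 and 18.3 ± 0.397 FPKM (log2 -0.38 and -0.15, adjusted p = 0.0011 and 0.0913). The second passed the FDR under median ratio scaling (-0.29, adjusted p = 0.0063). The other 2 neighbours did not pass the test with either siRNA. CAPZA2, an actin capping subunit, stood at 52.0 ± 2.04 FPKM in Scramble and at 60.5 ± 6.30 and 57.8 ± 5.66 FPKM after depletion (log2 0.21 and 0.15, adjusted p = 0.0740 and 0.200). ST7 stood at 13.7 ± 0.440 FPKM in Scramble and at 13.4 ± 0.555 and 14.8 ± 0.252 FPKM after depletion (log2 -0.03 and 0.10, adjusted p = 0.740 and 0.192). The differences of TES and MET were smaller in value than those of CAV2 and CAV1, and the medians of the 4 were -0.18 and -0.02.

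**Figure D5:**
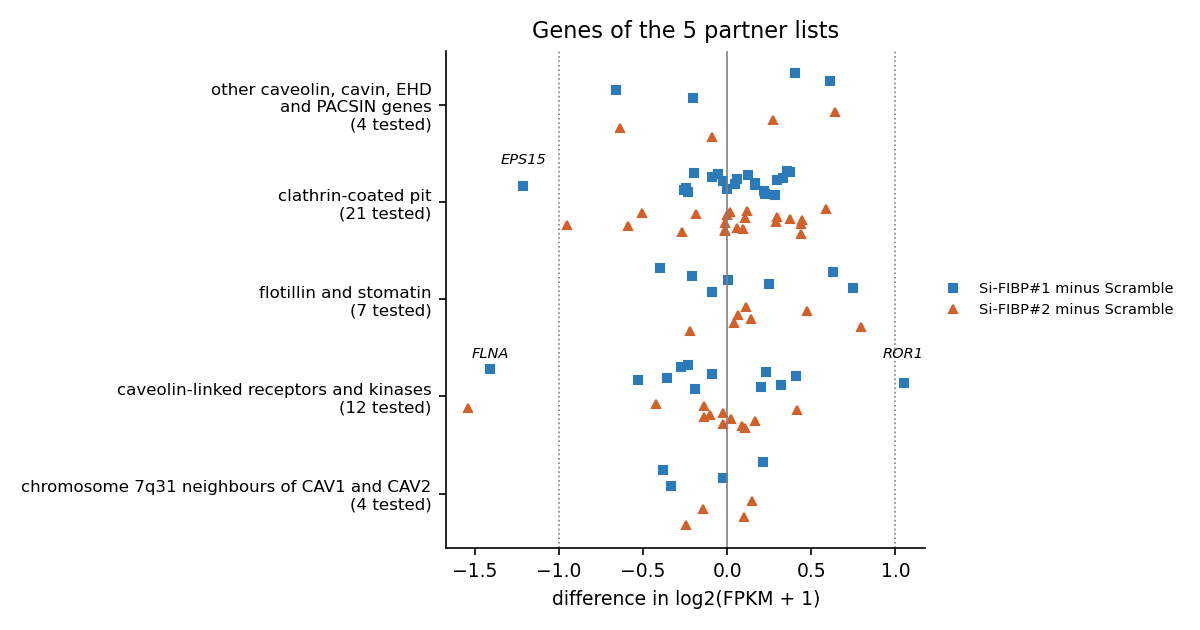
Differences in log2(FPKM + 1) from Scramble for the 48 tested genes of the 5 lists, with squares for Si-FIBP#1 and triangles for Si-FIBP#2; dotted lines mark a 2-fold difference. FLNA lies past 2-fold with both siRNAs, and EPS15 and ROR1 with Si-FIBP#1 alone.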

How the data were processed

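Poly(A)-selected RNA-seq libraries of 9 samples (3 groups of 3) were made by the authors and sequenced as paired reads. The submitters' processing notes name HISAT2 and StringTie, with no version or genome build given in the sources used here. The authors deposited 1 transcript table a sample with FPKM to 2 decimals, and this unit was inferred from the values and the tool. FPKM was summed over transcripts by gene. Genes that reached 1 FPKM in 3 or more samples (14985) were fitted on log2(FPKM + 1) with limma 3.58.1 in R 4.3.3 (trend, Benjamini-Hochberg adjustment), over all 9 samples. A fold change on this scale understates the change of low genes. The same fit was run on 47662 transcripts. A gene was called at FDR below 0.05 and more than 2-fold, the thresholds of the study.

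In simulated data, 200 of 14985 genes were changed by 1.5 on the log2 scale. Of these, 91%, 90.5% and 95% were recovered in the comparisons of Si-FIBP#1 with Scramble, Si-FIBP#2 with Scramble and Si-FIBP#2 with Si-FIBP#1. There were 1, 1 and 3 false calls past both thresholds among the unchanged genes. Noise was drawn independently for each gene, so these counts give no rate of false calls for the real data or for smaller differences. The members, lists and tests were chosen with earlier results of these data known. Named genes were the 7 members, their transcripts that passed the filter, FIBP, the called genes of each list or otherwise the 2 with the largest mean change, and the 5 genes nearest to CAV1. Some list genes are named outside this rule. Across groups, the deviations of same-numbered samples had correlations of -0.0568 to 0.103, and those of differently numbered samples -0.142 to 0.049. Replicate numbers were not used as pairs in the main fit, and a replicate block is given as a check. Depth was estimated from 8100 genes of 800 to 2000 bases. The limits for values of 0 cover counting error only. Genomic positions and coding sequence came from GENCODE 29 and promoters from RefSeq, matched by identifier or symbol. Alternatives covered scaling, pseudocount, filters, samples in the fit, a replicate block, annotated transcripts only, the FDR alone and leaving out each sample. Assembled transcripts held 5.45% to 5.84% of FPKM. A strand-specific kit was not stated, so reads of overlapping antisense genes cannot be told apart.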

Additional observations from a re-analysis of the deposited data

Results flagged for a closer look

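Several results differed between the 2 siRNAs by the test of that difference itself (limma, adjusted over all genes or all transcripts). CAV1 was lower with Si-FIBP#2 than with Si-FIBP#1 by -0.49 on the log2 scale (adjusted p = 0.0186), in 3 of 3 samples, and lost the threshold in 4 of 17 alternatives (adjusted p up to 0.0685). Its upstream-start transcript ENST00000341049 was lower by -0.61 (adjusted p = 0.0275), also in 3 of 3 samples, and lost it in 7 of 13 (adjusted p up to 0.0991). ROR1 was lower with Si-FIBP#2 by -0.88, but it entered the tests only through its 3 Si-FIBP#1 samples, the group where it was high, so nothing is read from its p. EHD1 was higher with Si-FIBP#2 by 0.24 (adjusted p = 0.0199), in 3 of 3 samples. It lost the threshold without Si-FIBP#1 replicate 3 and without Si-FIBP#2 replicate 1 (adjusted p = 0.0607 and 0.0611). MET was higher with Si-FIBP#2 by 0.23 (adjusted p = 0.0394), in 3 of 3 samples, and lost the threshold in 12 of 17 alternatives. Of the 48 list genes, 12 passed the FDR between the siRNAs, 6 higher and 6 lower, beside 15.4% of all genes, with ROR1 among the 6 lower although its p is not read. Outside the rule for named genes, and chosen after their values were seen, these included AP2M1 (-0.45, adjusted p = 3.5e-04), PRKCD (0.55, adjusted p = 0.0020), ERLIN1 (0.51, adjusted p = 0.0028) and SH3GL1 (-0.49, adjusted p = 0.0099). FIBP itself did not pass the test between the siRNAs. The causes of these differences were not tested. With 3 samples a group, single samples were checked by leaving each out in turn, and without Si-FIBP#2 replicate 2 the genes called between the siRNAs numbered 75 higher and 57 lower in place of 40 and 44.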

How the results depend on the processing

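The log2 difference of CAV1 from Scramble, which chose the gene, ranged from -1.78 to -1.64 for Si-FIBP#1 and from -2.32 to -2.05 for Si-FIBP#2. The number of members called was 1, 1 and 0 for the first siRNA and the second siRNA against Scramble and for the siRNAs against each other, and with the FDR alone it was 3, 2 and 1. List genes called numbered 3 for Si-FIBP#1 and 1 for Si-FIBP#2, rising to 24 and 18 by the FDR alone. The 3 and the 24 include ROR1, which is counted with no test. The count with Si-FIBP#2 was 2 under median ratio scaling and with a pseudocount of 0.1, and 1 to 2 when a sample was left out, each time by EPS15, which passed 2-fold without Si-FIBP#2 replicate 1 or 3. The count with Si-FIBP#1 was 2 under median ratio scaling, with the filter of 5 FPKM and without Scramble replicate 2, each time by the loss of ROR1. Over all genes, a pseudocount of 0.1 gave 849 higher and 649 lower calls in the first comparison in place of 382 and 466, and 953 and 458 in the second in place of 438 and 319. Between the siRNAs it gave 105 and 67 in place of 40 and 44. With the replicate block, in a check of pairing, members called were 1, 1 and 0 and list genes 3 and 1, with ROR1 again among the 3. CAV1 between the siRNAs then had adjusted p = 0.0130, while MET lost its threshold between the siRNAs (adjusted p = 0.0606). Of 899 values of single genes and transcripts under alternatives, 860 were unchanged by the test or by the spread between samples, 29 lost the FDR threshold, 2 gained it, 8 untested values moved by more than that spread and none reversed a call. Low FPKM in 2 decimals limits CAVIN2, CAVIN3 and ROR1.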
